A study of Mus musculus with 14 samples.

Results

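The genes described here encode the CD8 coreceptor and the effector proteins of killer lymphocytes: Cd8a, Cd8b1, Gzma, Gzmb, Gzmk, Prf1, Nkg7, Eomes, Klrd1 and Ifng. These 10 of the 51912 genes in the count files were taken as a fixed list of symbols, and each symbol matched 1 mouse Ensembl gene. RNA-seq was made on the left liver lobe of 14 untreated mice aged 20 weeks, with 1 library of total RNA for each. All 14 mice carried floxed Tet2 alleles (Tet2fl/fl). The 4 controls were healthy cre- littermates, which their phenotype label calls WT (wild type). The other two groups were Tet2fl/fl vav cre+, of which 5 mice were symptom free (asymptomatic) and 5 had spontaneous autoimmune hepatitis (AIH). The Vav promoter drives cre mainly in blood-forming cells and their progeny, and hepatocytes lie outside its reach in this model. The study's title names Tc1 cells, CD8 T cells that make interferon gamma, as the cells of this hepatitis.

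CD8 T cells recognise peptides on MHC class I molecules, and the CD8 coreceptor, a dimer of an alpha and a beta chain, binds that MHC molecule beside the T cell receptor. On contact they release granules that hold perforin, which opens pores in the target membrane, and granzymes, proteases that enter through them. Eomes and its relative Tbx21 are T-box transcription factors of killer lymphocytes, and interferon gamma is the cytokine that gives Tc1 cells their name. Natural killer (NK) cells share the granule proteins and Eomes, and Klrd1 (CD94) is best known from them. Cd8a without Cd8b1 is also found on a subset of dendritic cells, so the pair is read together here.

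Each library held 15.97 to 18.92 M counts over all genes (M, mega). Tet2 levels ran from 8.53 to 11.97 CPM (counts per M counts, TMM-scaled) in controls, 4.76 to 9.23 in asymptomatic livers and 7.33 to 15.4 in AIH livers, and neither cre+ group passed the test against controls (adjusted p = 0.435 for asymptomatic and 0.946 for AIH livers). A gene total does not single out the floxed part. The labels do not give sex. Xist and 4 Y-linked genes read controls 1 and 4, all 5 asymptomatic mice and AIH 4 as male, and the other mice as female, so AIH and asymptomatic livers differ in sex as well as in disease. The share of unaligned reads was 4.17% to 4.89% in controls, 7.80% to 9.27% in asymptomatic livers except asymptomatic 2 (4.93%), and 3.23% to 3.77% in AIH livers except AIH 4 (6.54%). The AIH libraries carry the numbers 11 to 15 and the others 1 to 10, so a processing order, if the numbers give one, cannot be told apart from disease. The 5 hepatocyte markers (Alb, Apoa1, Ttr, Serpina1a, Cyp2e1) together made up 79907 to 158437 CPM in every library, so the defining markers of the labelled tissue were present throughout. In whole liver RNA, fewer cells of a type and less RNA per cell cannot be told apart.

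Promoters of 4 granule genes are shown, because these genes were higher together in AIH than in asymptomatic livers while differing in how far they stood above controls. RefSeq gave 300-base windows (250 bases before the gene's RefSeq start and 50 after) on GRCm38.p6 for 8 of the 10 genes. The windows lie at chr7:43436888-43437187 (plus strand) for Nkg7, chr10:61297586-61297885 (plus strand) for Prf1, chr14:56262285-56262584 (minus strand) for Gzmb and chr13:113180916-113181215 (minus strand) for Gzmk. Capitals mark matches to a T-box motif (AGGTGT), a RUNX motif (TGTGGT) or an AP-1 motif (TGANTCA), searched on both strands, so the T-box motif can also read ACACCT and the RUNX motif ACCACA.
Nkg7: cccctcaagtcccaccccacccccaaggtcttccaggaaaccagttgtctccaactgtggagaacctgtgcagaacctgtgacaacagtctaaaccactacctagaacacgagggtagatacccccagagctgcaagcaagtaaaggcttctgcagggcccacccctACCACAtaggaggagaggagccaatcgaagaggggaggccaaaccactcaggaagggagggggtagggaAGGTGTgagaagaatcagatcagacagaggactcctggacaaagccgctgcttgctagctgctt
Prf1: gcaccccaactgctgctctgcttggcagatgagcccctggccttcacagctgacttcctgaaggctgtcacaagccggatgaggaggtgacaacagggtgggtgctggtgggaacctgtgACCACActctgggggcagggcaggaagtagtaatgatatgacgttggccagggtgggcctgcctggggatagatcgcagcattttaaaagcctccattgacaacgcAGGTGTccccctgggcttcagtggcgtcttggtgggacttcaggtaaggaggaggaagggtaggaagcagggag
Gzmb: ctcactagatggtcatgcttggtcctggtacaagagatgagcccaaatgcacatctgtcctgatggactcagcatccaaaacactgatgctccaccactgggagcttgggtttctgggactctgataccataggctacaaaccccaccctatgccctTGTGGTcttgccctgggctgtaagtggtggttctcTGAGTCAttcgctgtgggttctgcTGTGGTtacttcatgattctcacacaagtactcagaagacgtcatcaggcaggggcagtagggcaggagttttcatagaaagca
Gzmk: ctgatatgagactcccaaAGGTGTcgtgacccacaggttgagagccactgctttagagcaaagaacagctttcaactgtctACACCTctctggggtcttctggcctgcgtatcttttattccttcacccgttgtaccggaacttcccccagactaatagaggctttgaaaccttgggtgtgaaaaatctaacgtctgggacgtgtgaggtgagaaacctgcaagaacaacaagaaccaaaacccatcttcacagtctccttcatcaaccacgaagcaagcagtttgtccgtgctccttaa
The T-box letters stood in 4 of the 8 windows (Nkg7, Prf1, Gzma and Gzmk) beside 13.7% of the 32851 promoters of that length in the table. RUNX letters stood in 4 of 8 (Nkg7, Prf1, Gzma and Gzmb) beside 16.8%, and AP-1 letters in 1 of 8 (Gzmb) beside 7.81%. A cyclic AMP response element (TGACGTCA) stood in none of the 8, beside 1.79% of promoters. In Nkg7 the T-box match began 14 bases before the start and the RUNX match 83 bases before it. Prf1 had a T-box match at 24 bases and a RUNX match at 130 bases before the start. Gzmb held RUNX matches at 93 and 34 bases with the AP-1 match between them at 58, whereas the T-box matches of Gzmk lay at 232 and 169 bases. Nkg7, which rose in AIH livers against controls, and Prf1, which did not pass that test, held the same pair of motifs. A match is a description of letters and shows no binding.

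Most of these genes were higher in AIH livers than in both other groups. Against controls, 7 of the 9 tested genes rose (Cd8a, Cd8b1, Gzma, Gzmb, Gzmk, Nkg7 and Eomes) and none fell, with log2 fold changes of 2.07 to 4.68. Prf1 and Klrd1 did not pass the test. Of all 14638 genes tested, 21.7% were called in that comparison, 15.6% higher and 6.09% lower. Against asymptomatic livers, 9 of 9 tested genes rose, beside 29.8% of all genes called, 19.1% higher and 10.7% lower. At an unadjusted p under 0.05 the counts were 8 of 9 against controls and 9 of 9 against asymptomatic livers, beside 34.0% and 41.4% of all genes. The CPM of AIH livers lay wholly above those of controls for 5 of the 9 genes, beside 13.2% of all genes (6.61% lay wholly below), and wholly above those of asymptomatic livers for 9 of 9, beside 12.3% (4.65% below). Between asymptomatic livers and controls none of the 9 passed, and neither did any of the 14638 genes in the same fit (0%). Ifng had too few counts to be tested. The median log2 fold change of the 9 genes was 2.84 against controls and 2.99 against asymptomatic livers, beside −0.01 and −0.03 over all tested genes. These 9 passed a filter on low counts mainly through the AIH libraries: no control or asymptomatic library reached 10 counts of Cd8b1, Gzmk or Eomes. Their counts and medians are therefore no support for a rise of the list. The AIH comparisons share the same AIH livers. Adjusted p-values are from edgeR's quasi-likelihood test with Benjamini-Hochberg adjustment over all tested genes, at a threshold of 0.05, and a log2 fold change is given with its standard error (SE).

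**Figure D1:**
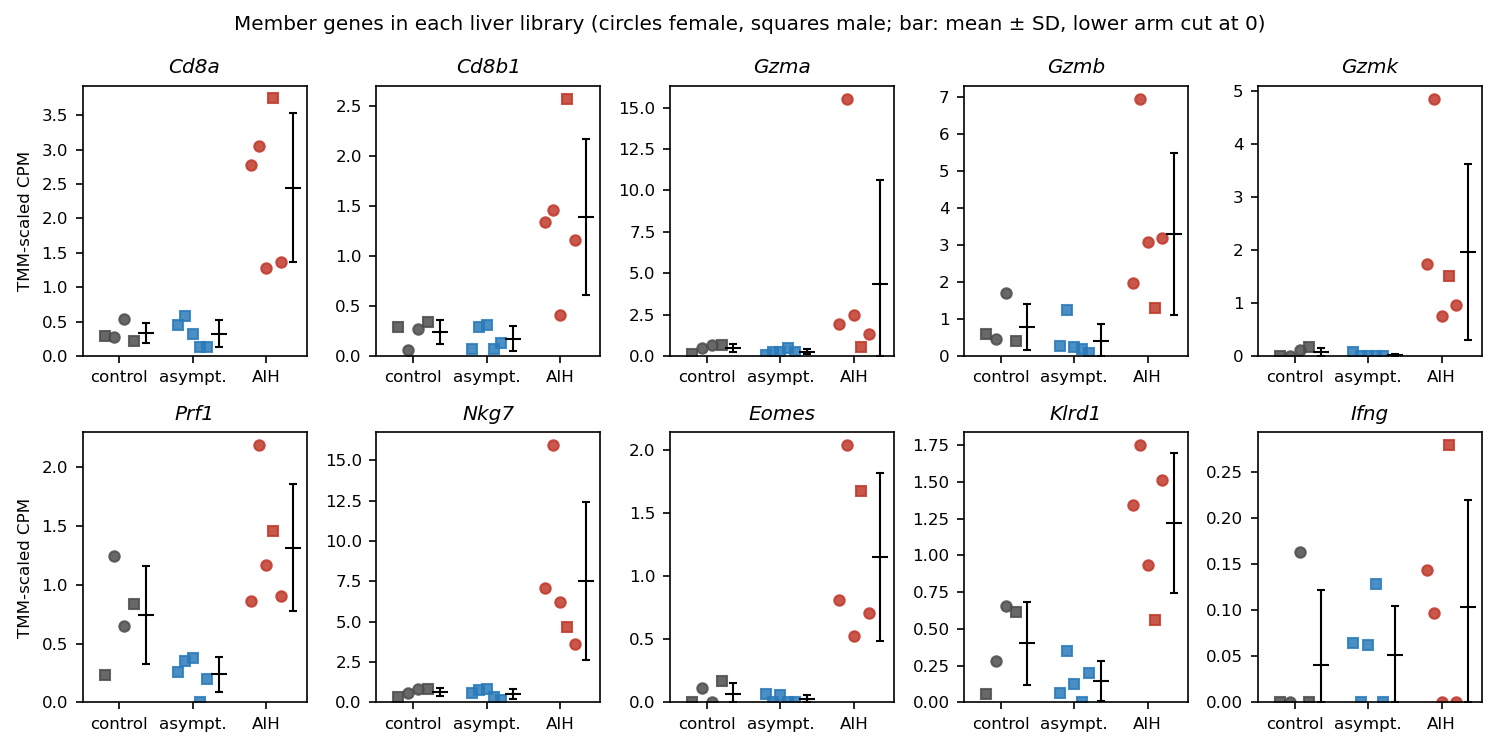
TMM-scaled CPM (y axis) of the 10 genes in each of 4 control, 5 asymptomatic and 5 AIH libraries (x axis), with circles for females, squares for males and a bar for the mean ± SD. All 5 AIH livers sit above every other liver for Cd8a, Cd8b1, Gzmk, Nkg7 and Eomes, while Gzma, Gzmb, Prf1 and Klrd1 overlap with controls, and Ifng stays under 0.28 CPM in all groups.

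Both chains of the CD8 coreceptor rose in AIH livers. Cd8a (ENSMUSG00000053977, GRCm38 chromosome 6, 71373427–71379173, plus strand) encodes the alpha chain. Its level was 2.78, 3.06, 1.28, 3.75 and 1.36 CPM in AIH 1 to 5. It was 0.292, 0.282, 0.544 and 0.223 CPM in controls 1 to 4, and 0.455, 0.588, 0.313, 0.129 and 0.133 CPM in asymptomatic 1 to 5. Every AIH liver lay above every other liver, and the other two groups overlapped. The mean was 2.45 ± 1.09 CPM in AIH livers (SD, n = 5), 0.335 ± 0.142 in controls (SD, n = 4) and 0.324 ± 0.201 in asymptomatic livers (SD, n = 5). Cd8a rose by 2.84 ± 0.49 on the log2 scale against controls (adjusted p = 0.00103) and by 2.88 ± 0.46 against asymptomatic livers (adjusted p = 0.00037).

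Cd8b1 (ENSMUSG00000053044, chromosome 6, 71322788–71337494, plus strand) encodes the beta chain, which in the mouse is the part of the coreceptor most restricted to T cells. In AIH 1 to 5 there were 28, 30, 7, 46 and 23 counts of it, or 1.34, 1.46, 0.408, 2.57 and 1.16 CPM. There were 5, 1, 5 and 6 counts in controls 1 to 4, and 1, 5, 5, 1 and 2 in asymptomatic 1 to 5. AIH 3, the lowest AIH liver, still stood above the highest liver of either other group (0.335 CPM in control 4). The rise was 2.50 ± 0.58 (adjusted p = 0.00676) against controls and 2.93 ± 0.56 (adjusted p = 0.00149) against asymptomatic livers. The pooled ratios in this report divide summed counts by library totals without TMM factors, so their scale differs from that of the fit. Pooled, Cd8b1 was 6.46-fold higher in AIH livers than in controls (95% exact interval of 3.89 to 11.4). Cd8a was 8.09-fold higher (5.31 to 12.9). The fitted values correspond to 5.67-fold for Cd8b1 and 7.15-fold for Cd8a. Intervals of pooled ratios cover counting error only and leave out the spread between livers.

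A difference in the proportion of the chains was not shown. The log2 ratio of Cd8b1 to Cd8a counts within a library (0.5 added to each) averaged −0.89 ± 0.52 in AIH livers (SD, n = 5), −0.57 ± 1.06 in controls (SD, n = 4) and −0.80 ± 0.95 in asymptomatic livers (SD, n = 5). The difference between AIH livers and controls was −0.32 (exact permutation test, two-sided, p = 0.548). With 12 such ratio tests the adjusted p was 0.849 for each, and the smallest p that these group sizes allow is 0.00794.

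Among the 10 genes, Nkg7 had the highest level per length in AIH livers and the smallest adjusted p in both AIH comparisons. Nkg7 (ENSMUSG00000004612, chromosome 7, 43437073–43438249, plus strand) encodes a granule membrane protein that aids granule release. Its level was 7.10, 15.9, 6.23, 4.64 and 3.63 CPM in AIH 1 to 5. Controls ran from 0.350 to 0.837 CPM and asymptomatic livers from 0.133 to 0.815. The lowest AIH liver, AIH 5, was well above the highest of the others, and the other two groups overlapped. Nkg7 rose by 3.53 ± 0.53 against controls (adjusted p = 0.000327) and by 3.81 ± 0.49 against asymptomatic livers (adjusted p = 7.1e-05).

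Gzmk was at or near 0 counts outside AIH. Gzmk (ENSMUSG00000042385, chromosome 13, 113171608–113225908, minus strand) encodes granzyme K, a tryptase-like protease. AIH 1 to 5 had 36, 100, 13, 27 and 19 counts, or 1.73, 4.86, 0.757, 1.51 and 0.959 CPM. Controls 1 to 4 had 0, 0, 2 and 3 counts, and of the asymptomatic livers only asymptomatic 1 had a count, which was 1. The highest of the other livers was control 4 at 0.167 CPM, below every AIH liver. The fit gave a rise of 4.68 ± 0.82 against controls (adjusted p = 0.0011), and the pooled ratio was 32.0 (95% exact interval of 13.5 to 99.6). Against asymptomatic livers the adjusted p was 0.000147, and the ratio of 184 rests on the single asymptomatic count, with an interval of 32.6 to 7300. The gene's span holds Esm1 on the other strand, with 0 shared exon bases.

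Gzma (ENSMUSG00000023132, chromosome 13, 113093825–113100981, minus strand), the gene of granzyme A, had the widest relative spread between AIH livers. Its level was 1.92, 15.5, 2.45, 0.559 and 1.31 CPM in AIH 1 to 5. Controls 1 to 4 had 0.117, 0.452, 0.653 and 0.670 CPM, and asymptomatic livers 0.0650 to 0.452 CPM. AIH 4 lay below controls 3 and 4, and AIH 2 alone held 320 of the 438 AIH counts. Gzma rose by 3.18 ± 0.87 against controls (adjusted p = 0.0178). Without AIH 2 the rise was 1.71 (adjusted p = 0.0481), and without control 1 it did not pass (2.85, adjusted p = 0.0555). Against asymptomatic livers it rose by 4.07 ± 0.87 (adjusted p = 0.00296), and by 2.59 without AIH 2 (adjusted p = 0.00403).

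Gzmb (ENSMUSG00000015437, chromosome 14, 56258838–56262260, minus strand) encodes granzyme B, the protease that cleaves caspases in target cells. Its level in AIH 1 to 5 was 1.97, 6.94, 3.09, 1.29 and 3.18 CPM. It was 0.584, 0.452, 1.69 and 0.391 CPM in controls 1 to 4, and 0.260, 1.23, 0.251, 0.194 and 0.0665 CPM in asymptomatic 1 to 5. Control 3 stood above AIH 4, so these groups overlapped, while the lowest AIH liver was just above asymptomatic 2. The rise against controls was 2.07 ± 0.68 (adjusted p = 0.0414). It did not pass the threshold in 6 of 9 fits that left out 1 library (controls 1, 2 and 4, and AIH 2, 3 and 5), with adjusted p-values up to 0.115. Against asymptomatic livers it was 2.99 ± 0.67 (adjusted p = 0.00416) and passed in each such fit.

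Prf1 (ENSMUSG00000037202, chromosome 10, 61297833–61304680, plus strand), the gene of perforin, had the smallest log2 fold change of the 9 tested genes between AIH livers and controls. A difference from the granzymes in this was not tested. AIH 1 to 5 had 0.863, 2.18, 1.16, 1.45 and 0.908 CPM. Controls 1 to 4 had 0.234, 1.24, 0.653 and 0.837 CPM, and asymptomatic 1 to 5 had 0.260, 0.353, 0.376, 0 and 0.199 CPM. Control 2 was above 3 of the AIH livers, and every AIH liver was above every asymptomatic liver. The log2 fold change was 0.82 ± 0.53 against controls (adjusted p = 0.299) and 2.42 ± 0.56 against asymptomatic livers (adjusted p = 0.00493). Asymptomatic livers had a log2 fold change of −1.61 ± 0.59 against controls (unadjusted p = 0.0166, adjusted p = 0.423). Counted over libraries, that was 19 counts in 5 livers beside 53 in 4, a pooled ratio of 0.312 (95% exact interval of 0.174 to 0.535). That interval covers counting error only and leaves out the spread between livers. Control 2 alone held 22 of the 53 control counts. With limma-voom and quality weights this fall passed (−2.42, adjusted p = 0.0479), in a fit that called 1299 genes where edgeR's test called 0.

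**Figure D2:**
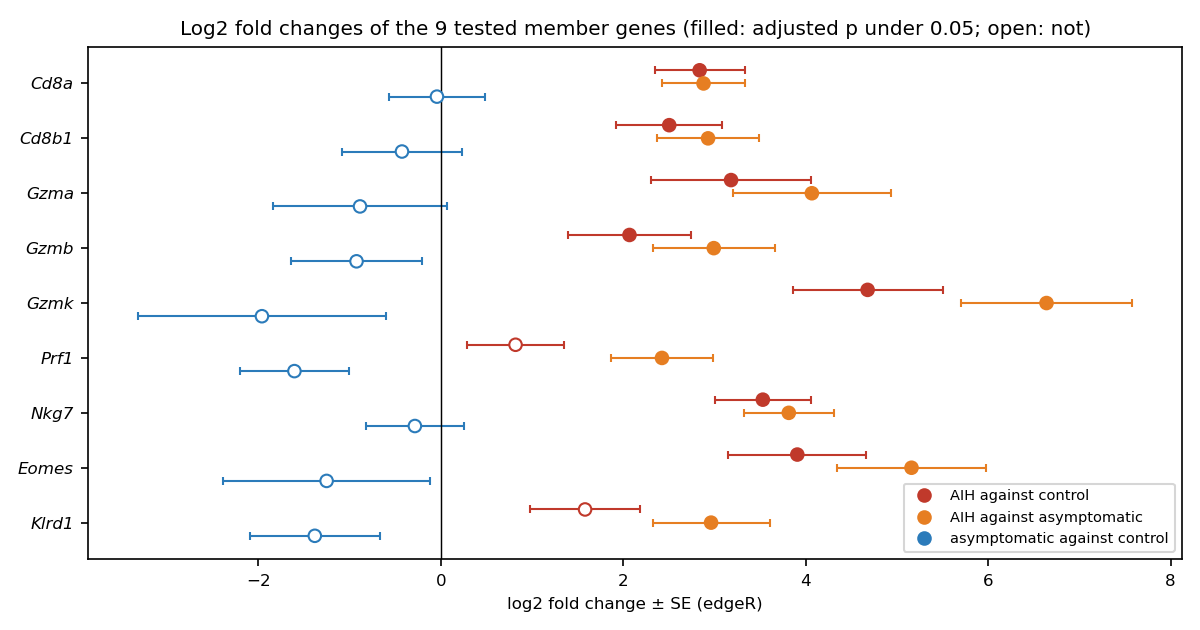
Log2 fold change ± SE (x axis) of the 9 tested genes (y axis) in the 3 comparisons, with filled points for adjusted p under 0.05. Both AIH comparisons lie to the right of 0 for all 9 genes, Prf1 and Klrd1 are open against controls, and all 9 asymptomatic values are open and at or left of 0.

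Within the granzymes, the share of Gzmk differed between livers. Of the counts of Gzma, Gzmb and Gzmk together, Gzmk made up 30.8%, 17.8%, 12.04%, 45% and 17.6% in AIH 1 to 5. The 95% exact binomial intervals were 32.1% to 58.4% for AIH 4 and 6.57% to 19.7% for AIH 3, which do not overlap. Controls 1 to 4 had shares of 0%, 0%, 4.44% and 13.6%, from 12 to 45 counts each. Asymptomatic 1 had 16.7% (1 of 6 counts), and the others had 0 of 5 to 25 counts, which allows shares of up to 12% to 60% when 3 counts are taken as the limit of a count of 0 (upper exact binomial bounds of 13.7% to 52.2%). Pooled, the share was 20.4% (195 of 956 counts) in AIH livers, 5.26% (5 of 95) in controls and 1.85% (1 of 54) in asymptomatic livers. The intervals of the control and asymptomatic livers overlapped one another, so a difference among these 9 livers was not detectable at this depth. Those of controls 2 and 3 (up to 20.6% and 15.1%) and asymptomatic 2 lay below those of AIH 1 (22.6% to 39.97%) and AIH 4. PCR copies are not independent molecules, so these intervals cover counting error only.

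**Figure D3:**
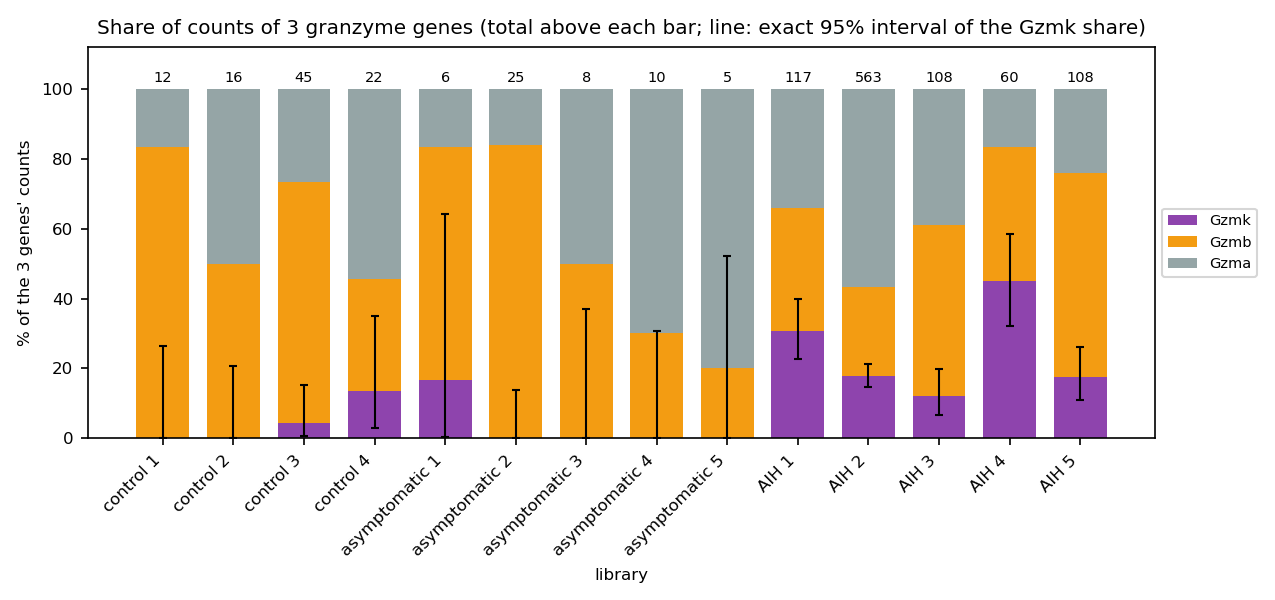
Stacked bars give the share (y axis, %) of Gzma, Gzmb and Gzmk in their summed counts in each library (x axis), with the sum above each bar and the exact 95% interval of the Gzmk share as a line. Gzmk reaches 45% in AIH 4 and 30.8% in AIH 1, and the intervals of the 9 other-group livers are wide because each rests on 5 to 45 counts.

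Eomes (ENSMUSG00000032446, chromosome 9, 118478212–118486132, plus strand), the T-box regulator, showed the same order of groups as Gzmk. AIH 1 to 5 had 17, 42, 9, 30 and 14 counts, or 0.815, 2.04, 0.524, 1.68 and 0.706 CPM. Controls had 0, 2, 0 and 3 counts, and asymptomatic livers 1, 0, 1, 0 and 0. Every AIH liver was above every other liver. The fitted rise against controls was 3.91 ± 0.76 (adjusted p = 0.0021) and the pooled ratio 18.4 (95% exact interval of 7.64 to 57.6). Against asymptomatic livers the adjusted p was 0.000345 and the pooled ratio 52.8 (14.3 to 441), which rests on 2 asymptomatic counts. An antisense gene, Gm33460, shares 118 exon bases with Eomes and had 3 counts in all 14 libraries. Eomes and Gzmk correlated at Pearson r = 0.96 over the 14 libraries, and at 0.65 after group means were removed. These values describe libraries that fall into AIH and the rest.

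Klrd1 (ENSMUSG00000030165, chromosome 6, 129591782–129598775, plus strand) encodes CD94, which pairs with NKG2 chains to bind the MHC molecule that H2-T23 encodes. AIH 1 to 5 had 1.34, 1.75, 0.932, 0.559 and 1.51 CPM. Controls 1 to 4 had 0.0584, 0.282, 0.653 and 0.614 CPM, and asymptomatic livers ran from 0 to 0.353 CPM. AIH 4 lay below controls 3 and 4, and all AIH livers lay above all asymptomatic livers. The log2 fold change against controls was 1.58 ± 0.61 and did not pass (adjusted p = 0.0777). It passed with DESeq2 (adjusted p = 0.0489), with limma-voom (adjusted p = 0.0256) and without AIH 4 (adjusted p = 0.0478). Against asymptomatic livers Klrd1 rose by 2.96 ± 0.64 (adjusted p = 0.00331).

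Ifng (ENSMUSG00000055170, chromosome 10, 118441046–118445892, plus strand), the gene of interferon gamma, was at the edge of detection in every group. The AIH livers 1 to 5 had 3, 2, 0, 5 and 0 counts, controls 0, 0, 3 and 0, and asymptomatic livers 1, 0, 1, 2 and 0. The groups overlapped. A count of 0 allows up to 3 counts in a library, so an Ifng difference of a few counts was not detectable at this depth. In a fit without a count filter the log2 fold change was 1.15 ± 1.19 against controls (adjusted p = 0.555) and 0.88 ± 1.11 against asymptomatic livers (adjusted p = 0.608). The pooled AIH-to-control ratio of 2.73 had an interval of 0.704 to 15.4. Gm49751 shares 336 exon bases with Ifng and had 1 count in all libraries.

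Set against length, the order of levels in AIH livers was Nkg7, Gzma, Gzmb, Gzmk, Klrd1, Cd8b1, Cd8a, Prf1, Eomes and Ifng. The mean CPM per kilobase of exon was 8.21 ± 5.36 for Nkg7, 4.33 ± 6.25 for Gzma, 2.29 ± 1.52 for Gzmb and 1.41 ± 1.20 for Gzmk (SD, n = 5 each). It was 0.952 ± 0.370 for Klrd1, 0.936 ± 0.525 for Cd8b1, 0.673 ± 0.298 for Cd8a, 0.509 ± 0.209 for Prf1, 0.277 ± 0.160 for Eomes and 0.080 ± 0.089 for Ifng. From Nkg7 down to Prf1 the means of neighbours in that order lay within the larger of their SDs. Prf1 and Eomes, and Eomes and Ifng, lay further apart than that. These SDs are between livers and leave out that all genes were measured in the same livers. Within livers, Nkg7 stood above Gzma in each AIH liver. Gzma stood above Gzmb in AIH 1 to 3 and below it in AIH 4 and 5. In controls the highest per length was also Nkg7 (0.703 ± 0.252), followed by Gzmb (0.542 ± 0.426).

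The asymptomatic livers carried the same cre and did not show higher levels of these genes. All 9 tested log2 fold changes against controls were below 0 (median −0.92, beside 0.00 over all genes), from −0.04 for Cd8a to −1.96 for Gzmk, and none passed. Their adjusted p-values ran from 0.423 to 0.982. Only Prf1 had an unadjusted p under 0.05, beside 10.5% of all tested genes. No gene of the 9 had separate groups here, beside 1.27% of genes that were higher and 1.15% that were lower without overlap. Pooled counts gave an asymptomatic-to-control ratio of 0.942 for Cd8a (95% exact interval of 0.520 to 1.71) and 0.794 for Nkg7 (0.510 to 1.23), so at counting error alone a rise beyond these upper bounds is outside the intervals. Both comparisons with controls use the same 4 controls. The negative sign of Cd8a, Gzma, Gzmb and Nkg7 turned in at least 1 other setting, with values given under the processing settings.

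Which genes passed in AIH livers depended on the terms in the fit. With sex as a term, 5 genes rose against asymptomatic livers (Cd8a, Cd8b1, Gzmk, Nkg7 and Eomes), where 8.35% of all genes rose. The same 5 rose with the unaligned share as a term (3.72% of all genes). AIH 4, the only male AIH liver, also had the highest unaligned share of its group, so both fits lean on that liver. Sex or the unaligned share cannot be fully told apart there from the levels of AIH 4 itself. The fit with the unaligned share leans on asymptomatic 2 as well. Its share (4.93%) was the only one of its group below that of AIH 4 (6.54%). Among AIH livers, AIH 4 was lowest for Gzma, Gzmb and Klrd1. The comparison within males sets AIH 4 alone, the AIH liver with the highest Cd8a and Cd8b1, against the asymptomatic livers, and its spread is assumed to equal that of the rest. It describes that liver and is no replicated check of the AIH group (5.36% of all genes passed upward). Its log2 fold changes were 3.49 for Cd8a (adjusted p = 0.00389), 3.82 for Cd8b1 (0.00493), 6.26 for Gzmk (0.00872), 3.12 for Nkg7 (0.0139) and 5.70 for Eomes (0.00522). Gzma, Gzmb, Prf1 and Klrd1 passed in neither adjusted fit, nor in this comparison. Their log2 fold changes with sex as a term were 2.47 (adjusted p = 0.234), 1.82 (0.196), 2.18 (0.0668) and 2.21 (0.127), all still above 0.

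Against controls, where both sexes stand in each group, the same 5 genes rose with sex as a term (12.9% of all genes) and within females (4 AIH livers against 2 controls, 9.42%). Within females the values were 2.34 for Cd8a (adjusted p = 0.0306), 2.68 for Cd8b1 (0.0380), 5.07 for Gzmk (0.0180), 3.56 for Nkg7 (0.00829) and 4.04 for Eomes (0.0312). Gzma had 2.47 with sex as a term (adjusted p = 0.0954) and 3.25 within females (0.0653), and Gzmb had 1.69 (0.0963) and 1.82 (0.181). Within males, AIH 4 alone stands against controls 1 and 4, and its log2 fold change for Cd8a was 3.83. That value describes 1 liver and is no replicated check of the AIH group. Cd8b1 and Eomes failed the count filter, and were not tested, when AIH 1, 2, 4 or 5 was left out.

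**Figure D4:**
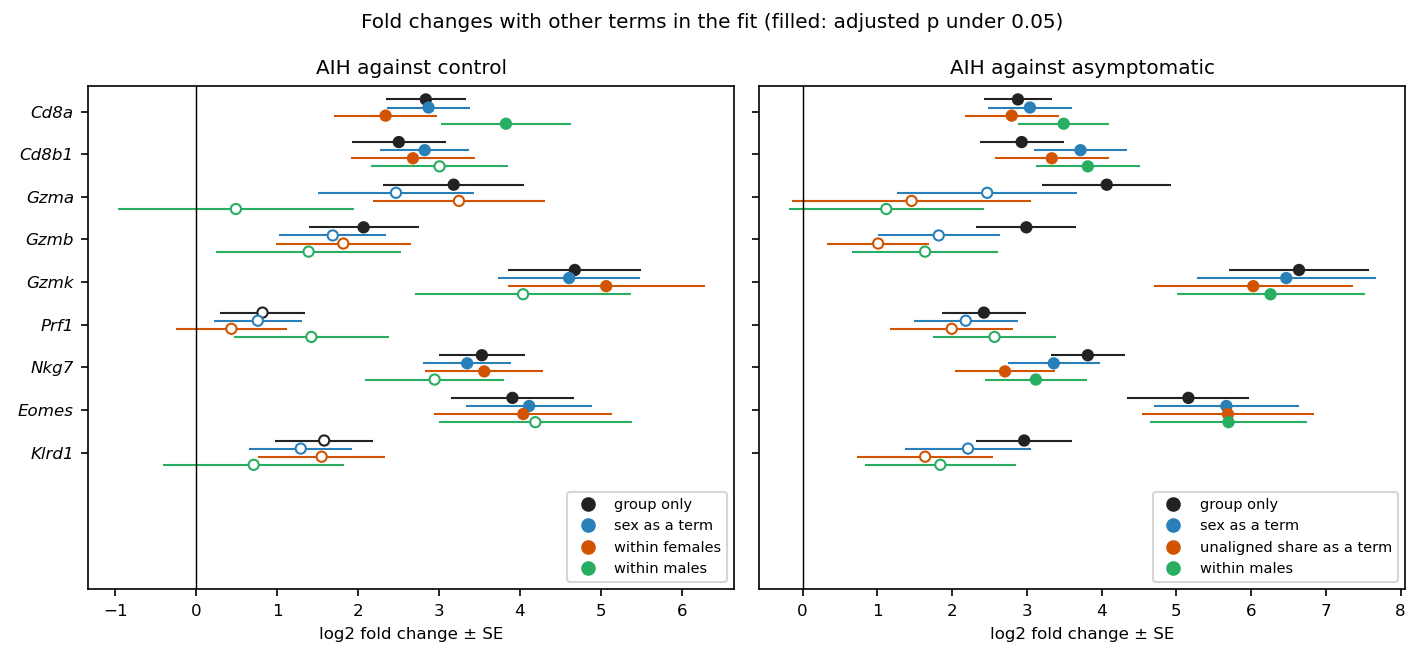
Log2 fold change ± SE (x axis) of the 9 tested genes (y axis) with group alone in the fit and with sex, the unaligned share or 1 sex, for AIH against control (left) and against asymptomatic livers (right), with filled points for adjusted p under 0.05. Cd8a, Cd8b1, Gzmk, Nkg7 and Eomes are filled in all 4 fits on the right, of which the fit within males holds AIH 4 as its only AIH liver, where Gzma, Gzmb, Prf1 and Klrd1 are filled with group alone only.

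The 5 AIH livers did not rank alike for these genes. AIH 2 was highest for 7 of 10 genes (Gzma, Gzmb, Gzmk, Prf1, Nkg7, Eomes and Klrd1). AIH 4, the male, was highest for Cd8a, Cd8b1 and Ifng and lowest for Gzma, Gzmb and Klrd1. AIH 3 was lowest for Cd8a, Cd8b1, Gzmk and Eomes. Relative to the mean of the 5 AIH livers, AIH 4 had 1.53 times the Cd8a and 1.85 times the Cd8b1 but 0.13 times the Gzma. AIH 2 had 1.25 times the Cd8a and 3.57 times the Gzma. After group means were removed, the correlation of log2 CPM over the 14 libraries was −0.08 for Cd8a with Gzma, 0.56 for Cd8a with Cd8b1 and 0.57 for Cd8a with Nkg7, given as a description.

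**Figure D5:**
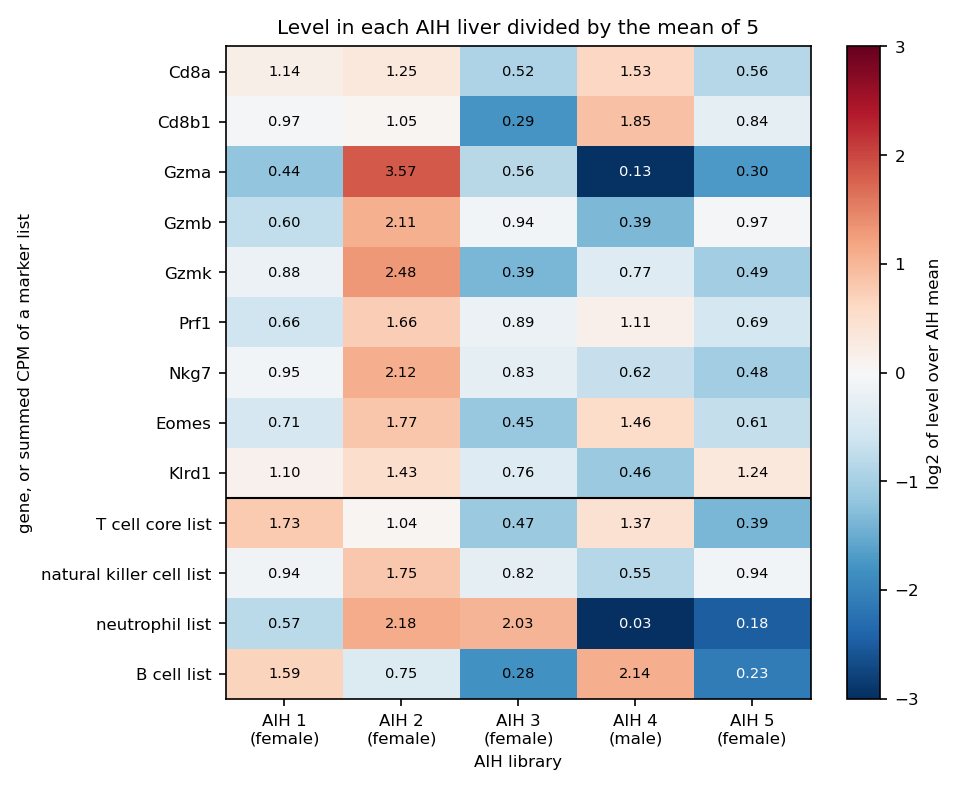
Each cell gives the level of a gene, or the summed CPM of a marker list (rows), in 1 AIH liver (columns) divided by the mean of the 5, and the colour its log2. AIH 2 is at 3.57 for Gzma and 2.12 for Nkg7, and AIH 4 is at 1.85 for Cd8b1, 0.13 for Gzma and 0.03 for the neutrophil list.

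Markers of the cell types that could carry these transcripts moved as follows. Genes of this and the later lists had to pass the same count filter, and those low outside AIH passed it through the AIH libraries. The number of tested list genes that rose is therefore a description and no support for a rise of a list. Of all tested genes, 15.6% rose against controls and 19.1% against asymptomatic livers. With sex as a term these shares were 12.9% and 8.35%. List counts are from the fit with group alone unless another setting is named, so those against asymptomatic livers also carry the difference in sex. Of 16 T cell genes, 15 rose against controls and 15 against asymptomatic livers (all but Zap70), with a median log2 fold change of 3.05 and 3.22. Their summed level was 154, 93.0, 41.5, 122 and 34.4 CPM in AIH 1 to 5, beside 12.8 to 27.4 CPM in controls and 9.36 to 28.1 CPM in asymptomatic livers. Within females 7 of the 16 rose against controls. Cd3e encodes a signalling chain of the T cell receptor, and the log2 ratio of Cd8a to Cd3e was −1.08 ± 0.57 in AIH livers (SD, n = 5), −0.92 ± 0.60 in controls (SD, n = 4) and −0.53 ± 1.10 in asymptomatic livers (SD, n = 5). The difference between AIH livers and controls was −0.16 (exact permutation p = 0.690). For Nkg7 to Cd3e it was 0.50 (exact permutation p = 0.429). Among the 12 ratio tests the smallest p was for Cd8a to Cd4 between AIH and asymptomatic livers, a difference of 1.16 (exact permutation p = 0.0952, adjusted p = 0.849).

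Of 4 CD4 T cell genes, Cd4 rose in both AIH comparisons, by 3.15 ± 0.66 (adjusted p = 0.00374) and 2.39 ± 0.58 (adjusted p = 0.00704). Zbtb7b, which liver expresses at 54.0 ± 6.32 CPM even in AIH, fell by 0.56 and by 0.61. Foxp3 had 2, 11 and 211 counts in controls, asymptomatic and AIH livers, and Cd40lg had 9, 7 and 29, and neither was tested. Of 4 gamma delta T cell genes only Tcrg-C2 was tested, and it rose in both comparisons (adjusted p = 0.00138 and 0.00547), while Trdc had 12, 0 and 17 counts.

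NK cell genes were few in counts, and 3 of 12 were tested. Klrk1 rose by 1.51 ± 0.43 against controls (adjusted p = 0.0208) and by 1.88 ± 0.40 against asymptomatic livers (adjusted p = 0.00317). Klrb1c had a log2 fold change of 1.88 ± 0.71 against controls (adjusted p = 0.0731) and rose by 2.12 ± 0.68 against asymptomatic livers (adjusted p = 0.0292), and Cd160 passed neither. With sex as a term none of the 3 passed against asymptomatic livers. Ncr1, the most specific NK marker of the list, had 14 counts in controls, 4 in asymptomatic and 37 in AIH livers. The summed NK list was 8.83, 16.5, 7.74, 5.199 and 8.88 CPM in AIH 1 to 5. It was 1.52 to 6.31 CPM in controls and 1.35 to 3.95 CPM in asymptomatic livers. In that sum AIH 2 was highest and AIH 4 lowest, as for Gzma. Single genes of the list differed: Ncr1 was highest in AIH 1 (0.576 CPM) and Klrb1c in AIH 3 (2.45 CPM). Both were lowest in AIH 4 (0.224 and 0.447 CPM). Klrk1 is also on activated CD8 T cells, and the part of NK cells in the granule gene levels was not tested.

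Other blood cell lists rose as well. All 6 tested neutrophil genes of 7 rose (median log2 fold change of 8.27 and 8.48), with sums of 290, 1100, 1025, 17.6 and 90.8 CPM in AIH 1 to 5 against at most 7.94 CPM in the other livers. All 4 B cell and all 4 Kupffer cell genes rose in both comparisons. Of 5 genes of the CD8-bearing dendritic cell, Xcr1, Clec9a and Batf3 rose against controls, and Xcr1, Batf3, Tlr3 and Cadm1 against asymptomatic livers. None of 2 tested plasmacytoid dendritic cell genes rose against controls and Tcf4 rose against asymptomatic livers. Kit, the only tested gene of 8 on the mast cell and basophil list, did not pass, and Mcpt8 had 1, 0 and 170 counts. The part of these cells in the levels of the 10 genes was not tested.

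Among other effector molecules, 5 of 15 genes were tested. Ccl5, a chemokine stored by effector T cells and NK cells, was at 15 ± 9.25 CPM in AIH livers (SD, n = 5), 0.869 ± 0.446 CPM in asymptomatic livers (SD, n = 5) and 1.49 ± 0.517 CPM in controls (SD, n = 4). It rose by 3.32 ± 0.49 against controls (adjusted p = 0.000292) and by 4.09 ± 0.47 against asymptomatic livers (adjusted p = 2.74e-05), and also without AIH 2 or with sex as a term. Ccl3, Ccl4 and Tnf, which macrophages make too, rose in both comparisons, but against asymptomatic livers not with sex as a term. Each reached 10 counts in 4 AIH libraries and in no other library, so they passed the count filter through AIH alone. Without AIH 2 they failed it, which is not particular to that liver. Tnfsf10, the gene of the death ligand TRAIL, did not pass (−0.26 ± 0.37, adjusted p = 0.673). Fasl, whose product kills through the Fas receptor, had 6, 9 and 72 counts, Xcl1 had 12, 14 and 62 and Lta 2, 5 and 48, all untested. Of the other granzyme genes, Gzmm had 12, 16 and 18 counts and Gzmc 1, 3 and 14, Gzmf had 1 count in AIH livers, and Gzmd, Gzme, Gzmg and Gzmn had none in any library.

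Genes that build and protect the granule rose in part. Of 7 tested of 8, 5 rose against controls and 6 against asymptomatic livers (medians 1.76 and 2.03), and none fell. Srgn, the proteoglycan core of the granule, rose from 12.7 ± 2.22 CPM in controls (SD, n = 4) to 82.3 ± 56.5 in AIH livers (SD, n = 5). Cst7, a cathepsin inhibitor, had 2, 9 and 322 counts. Ctsc, which activates granzymes, rose by 1.11 ± 0.35 (adjusted p = 0.0333), and Ctsw, a lymphocyte cathepsin, by 1.82 ± 0.48 (adjusted p = 0.0138). Serpinb9, an inhibitor of granzyme B, rose against asymptomatic livers alone (0.93 ± 0.27, adjusted p = 0.0176), and the abundant Lamp1 passed neither test. Several of these are also made by myeloid cells, whose markers rose too, and their part was not tested.

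Of 7 genes of granule release, Unc13d, Rab27a and Stx11 rose against controls, and Stxbp2 also against asymptomatic livers (medians 0.80 and 0.67). Unc13d, which primes granules for fusion, rose by 2.60 ± 0.43 (adjusted p = 0.000752), and Stx11, a membrane fusion protein, by 2.68 ± 0.34 (adjusted p = 8.5e-05). Lyst, Ap3b1 and Sytl2 passed neither test.

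Of 13 tested transcription factors of 14, 7 rose against controls and none fell, and 8 rose against asymptomatic livers while Hopx fell (medians 0.84 and 1.24). Tbx21 (T-bet), the relative of Eomes that drives interferon gamma, rose from 0.338 ± 0.166 CPM in controls (SD, n = 4) to 1.54 ± 1.03 in AIH livers (SD, n = 5), a log2 fold change of 2.17 ± 0.57 (adjusted p = 0.0138). Runx3, which sets the CD8 lineage, rose by 3.43 ± 0.59 (adjusted p = 0.00101) and by 4.26 ± 0.59 against asymptomatic livers (adjusted p = 0.000117). Prdm1, Zeb2, Stat4, Batf and Irf4 rose in both comparisons. Tcf7, a factor of memory and naive T cells, passed neither test (0.54 ± 0.32, adjusted p = 0.260, against controls), and Lef1 had 10, 13 and 80 counts. Markers of B cells, Kupffer cells and neutrophils rose too. Which cells carried the transcripts of this list and of the next was not tested.

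Homing and state receptors of CD8 T cells were 14 tested of 15, of which 9 rose against controls and 10 against asymptomatic livers (medians 2.19 and 2.30), and none fell. They included Cxcr3, the receptor for Cxcl9 and Cxcl10, at 2.12 ± 0.63 (adjusted p = 0.0255), and Cx3cr1, found on effector cells and monocytes, at 3.06 ± 0.47 (adjusted p = 0.00041). Cd69, an early activation and residency marker, rose by 2.49 ± 0.38 (adjusted p = 0.000418). Ccr7, which guides naive and central memory cells to lymph nodes, rose by 2.71 ± 0.61. Cxcr6, a receptor of liver-resident lymphocytes, had 1.30 ± 0.49 (adjusted p = 0.0708) against controls and 1.23 ± 0.45 (adjusted p = 0.0534) against asymptomatic livers. Klrg1, a marker of terminal effectors, had 5, 0 and 12 counts.

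Although Ifng itself could not be tested, genes around it were measured. Of 6 tested inducers and inducer receptors of 9, Il18r1 and Il18rap, the chains of the interleukin 18 receptor, rose against controls (1.92 ± 0.60, adjusted p = 0.0342, and 2.88 ± 0.66, adjusted p = 0.00607). Against asymptomatic livers Il15 rose as well and Il15ra fell. Il12b, a chain of interleukin 12, had 2, 3 and 53 counts. Of 16 tested receptor and target genes of 18, 9 rose against controls and 11 against asymptomatic livers (medians 1.24 and 1.35), and none fell. With sex as a term these counts were 6 and 4, and Cxcl11 then fell against asymptomatic livers. Tap1, the peptide transporter, rose by 1.24 ± 0.19 (adjusted p = 0.000446) and Ciita, the switch for MHC class II, by 2.43 ± 0.62 (adjusted p = 0.0115). Cxcl9 was at 53.8 ± 35.1 CPM in AIH livers (SD, n = 5), 12.4 ± 7.98 CPM in asymptomatic livers (SD, n = 5) and 18.6 ± 11.1 CPM in controls (SD, n = 4), with adjusted p-values of 0.0521 against controls and 0.00603 against asymptomatic livers. Type I interferon also induces several of these targets.

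Of the 4 genes of ligands for CD8 and CD94, H2-D1 and B2m rose against controls and H2-K1, H2-D1 and H2-T23 against asymptomatic livers (medians 0.50 and 0.53). H2-D1 rose by 0.94 ± 0.21 (adjusted p = 0.00487). With sex as a term none of the 4 passed against asymptomatic livers. No gene of any of these lists passed between asymptomatic livers and controls.

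The tested genes most like each member were read by Pearson correlation of log2 CPM over the 14 libraries. For Cd8a they were Pold1, Il16 and AU020206 (r = 0.99, 0.97 and 0.97), and for Cd8b1 Il4i1, Cx3cr1 and Serpinb6b (r = 0.96, 0.95 and 0.95). Gzma lay nearest to Sms, Tbc1d10b and Pitpna (r = 0.95, 0.95 and 0.94), Gzmb to Cd274, Vill and Cd84 (r = 0.95, 0.94 and 0.94), and Gzmk to Ccdc88b, Sp110 and Car13 (r = 0.97 for each). Prf1 was nearest to Tmem150b, Rnf34 and Rad54b (r = 0.91 for each) and Nkg7 to Ccnb2, Clic1 and Lat2 (r = 0.98, 0.97 and 0.97). For Eomes they included Penk and Rrm1 (r = 0.95 for each), and for Klrd1 they were Stk39, Trpv2 and Myof (r = 0.95, 0.93 and 0.92). No member had another member's nearest genes. Since the libraries fall into AIH and the rest, any gene with that step correlates highly, and these values are a description.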

How the data were processed

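The deposited files hold raw read counts per mouse Ensembl gene, not normalized, with 51912 gene rows and 5 summary rows per library. The submitters' processing notes list HISAT2 2.1.0 and HTSeq 0.9.0, with cutadapt 1.12, FastQC 0.11.5, R 4.0 and edgeR, and the builds GRCh38 and GRCm38, with no roles. The annotation release and strand setting are not given in the sources used here, so antisense reads cannot be told apart. Summary rows were left out of totals and tests; by them, 28.8% to 37.0% of reads did not align uniquely, 3.23% to 9.27% did not align, 2.29% to 3.29% had no feature and 1.38% to 3.05% had several.

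Counts were filtered with filterByExpr (minimum count 10), leaving 14638 genes, scaled by TMM and tested with edgeR 4.0.16 (quasi-likelihood F-test, two-sided, R 4.3.3) in 1 fit of 14 libraries with group as the only term. The 193 gene IDs absent from GENCODE M21 held 0.00517% of counts. SE is the absolute log2 fold change divided by the square root of F. CPM per kilobase used merged exon length. Promoters came from RefSeq. Named genes were the 10 members, the list genes, the 3 most correlated genes per member, and genes read for sex and for the floxed allele; some genes that this rule names are not reported here. Of 162 list symbols, 162 matched and 121 were tested. The members and lists were chosen with earlier results of these data known. Replicates are separate samples in the labels, and p-values measure the spread between them.

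Alternatives were unscaled library totals, RLE factors, scaling without the 20 most abundant genes, 2 other filters, DESeq2 1.42.0, limma 3.58.1 voom with quality weights, robust spread, only the 2 groups, sex or the unaligned share as a term, 1 sex, and each library left out. Gene list counts under these settings were added after seeing the data. The fit was tested on simulated counts.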

Additional observations from a re-analysis of the deposited data

Results flagged for a closer look

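Of 42 groups of values (10 genes and 4 ratios in 3 groups), 8 had 1 library standing far from the rest by Dixon's test. The test's rate of about 1 in 20 holds for normally distributed values. It does not hold for CPM from a few counts, where a lone library above 0 is always flagged. The 8 flags are therefore not read as more than chance gives. AIH 2 stood apart for Gzma at 15.5 CPM (next 2.45), for Gzmk at 4.86 CPM (next 1.73) and for Nkg7 at 15.9 CPM (next 7.10). Gzmb stood out in control 3 at 1.69 CPM (next 0.584) and in asymptomatic 2 at 1.23 CPM (next 0.260). Asymptomatic 1 had the only Gzmk count of its group, 0.0650 CPM, and control 3 the only Ifng counts of the controls, 0.163 CPM. The log2 ratio of Cd8a to Cd4 was −0.25 in control 3, and the next was −1.83.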

How the results depend on the processing

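No paired analysis was possible because the replicate numbers come from accession order and match no animals across groups. The number of genes called between AIH livers and controls was 3176, and 1746 within females, 447 within males and 2350 to 3425 with 1 library left out. Of the 10 genes described, 7 were called there, and 4 to 7 with 1 library left out (4 without AIH 2 or AIH 5, where 7 were tested). Between asymptomatic livers and controls 0 genes were called (1542 at an unadjusted p under 0.05), 118 with DESeq2, 1299 with limma-voom and 0 to 13 with 1 library left out (13 without asymptomatic 2). Among the genes described, limma-voom called 1 (Prf1). Between AIH and asymptomatic livers 4355 genes were called, 1372 with sex as a term, 562 with the unaligned share as a term, 812 within males and 3317 to 4649 with 1 library left out. Of the genes described 9 were called, and 5 in each of those 3 fits (within males, AIH 4 alone stands for its group). The sign between asymptomatic livers and controls turned for Cd8a with the unaligned share as a term (0.034), within males (0.34) and with 1 library left out (−0.37 to 0.29, above 0 without control 3, asymptomatic 4 or asymptomatic 5). It turned for Gzma with sex as a term (7.6e-05), and with the unaligned share as a term for Gzma (1.02), Gzmb (0.54) and Nkg7 (0.60). None of these passed the test, and the cause was not tested. With 1 library left out, the ratio of Cd8b1 to Cd8a ran from −0.75 to 0.047 (AIH against control), −0.66 to 0.15 (asymptomatic against control) and −0.47 to 0.11 (AIH against asymptomatic). For Cd8a to Cd3e it ran from −0.38 to 0.069 and −0.019 to 0.65 in the comparisons with controls, and for Cd8a to Cd4 from −0.12 to 0.66 (AIH against control). For Nkg7 to Cd3e it ran from −0.20 to 0.56 (asymptomatic against control) and −0.058 to 0.75 (AIH against asymptomatic). Library totals alone in place of TMM moved the median of all genes to 0.13 and 0.17 in the AIH comparisons, and the genes called among those described stayed at 7 and 9. Counts of 0 to 5 per library limit Ifng, Gzmk and Eomes outside AIH.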
